A study of Homo sapiens with 6 samples.

Results

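The genes examined were the transcriptional coactivators YAP and TAZ, their TEAD partners and a set of their regulators and target genes, 10 genes in all out of 38648 genes and gene copies listed in each library. They were picked by name and not by any measured value, although earlier results of these data were known. The 10 genes were YAP1, WWTR1 (the gene of TAZ), TEAD1, TEAD4, LATS2, ANKRD1, AMOTL2, AXL, CCN2 (also called CTGF) and CCN1 (also called CYR61). All 10 passed the filter on low counts, which left 15340 genes and gene copies to test. The data were 6 bulk RNA-seq libraries of HK-2 cells, an immortalized line derived from human proximal tubular epithelium. Every library came from cells that carried a lentivirus, received a single X-ray dose of 8 Gy and were collected at day 7 after it. Each group carried its own lentivirus, and the sources do not say whether its libraries came from a single infected line. The control group carried a negative control virus (IR+NC-LV, n = 3), and the other group carried the lentivirus for PRDM16 overexpression (IR+PR-LV, n = 3). No library of unirradiated cells was analysed here, so irradiation and a lentivirus were common to both groups. The sources do not say whether the libraries of a group were separate cultures, and the p-values below measure only the spread between these libraries, which may be technical.

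YAP and TAZ carry no DNA-binding domain of their own and act on genes mainly through the TEAD transcription factors. The Hippo pathway, a kinase cascade in which STK3 and STK4 activate LATS1 and LATS2, phosphorylates YAP and TAZ and keeps them out of the nucleus, whereas cell spreading and a stiff substrate favour their nuclear entry. In the kidney tubule the pathway is known for its part in epithelial repair and in fibrosis. Because control acts largely on the location and the stability of the proteins, messenger RNA levels of YAP1 and WWTR1 do not measure YAP or TAZ activity, while CCN1, CCN2 and ANKRD1 are widely used as its transcriptional readouts.

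The total count per library lay between 13407074 and 28540041, and the library with the fewest counts was IR+NC-LV replicate 3. PRDM16 held 2, 0 and 1 counts in IR+NC-LV replicates 1 to 3 and 14, 10 and 8 counts in the IR+PR-LV replicates, in the direction of the labels but under the filter on low counts. Its level in the IR+PR-LV replicates was only 0.308, 0.131 and 0.163 TPM. The paper measured PRDM16 protein in HK-2 cells with these viruses by western blot. Of 12 tubular epithelial markers, 7 exceeded 1 TPM in every library, among them the keratins KRT8 at 811 ± 14.0 TPM, KRT18 at 613 ± 15.2 TPM and KRT19 at 526 ± 18.5 TPM in IR+NC-LV (SD, n = 3). The endocytic receptors LRP2 and CUBN of the mature proximal tubule stood at a mean of 0.00321 and 0.321 TPM in IR+NC-LV, and none of the 12 markers was at 0 in all 6 libraries. The summed level of this list was 2177 to 2264 TPM in IR+NC-LV and 2137 to 2661 TPM in IR+PR-LV. Of 9 fibroblast, endothelial and leukocyte markers, 2 exceeded 1 TPM in every library, and the list summed to 196.7 to 209.6 TPM in IR+NC-LV and 168.3 to 180.6 TPM in IR+PR-LV. Most of that sum was CD68, a glycoprotein of endosomes and lysosomes, at 193 ± 10.2 TPM in IR+NC-LV and 161 ± 7.51 TPM in IR+PR-LV (SD, n = 3), with an adjusted p of 0.405 by edgeR. None of the 10 tubular and 4 other markers that were tested passed the adjusted threshold by edgeR or DESeq2, and at an unadjusted p under 0.05 EPCAM was higher (a mean of 56.8 TPM, against 49.9 TPM in IR+NC-LV) and CD68 lower in IR+PR-LV. The part of these differences in the results below was not tested.

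Promoter sequences of 3 of the genes, over the 250 bases before an annotated start site, are shown as examples that hold the letters that TEAD factors are known to bind, GGAATG, or its reverse complement CATTCC. CCN2 and ANKRD1 are the readout genes with a window and had the most matches, and AMOTL2 is one of the genes with an unadjusted p under 0.05. They were taken from RefSeq (GRCh38.p14) and are written 5′ to 3′ in the direction of transcription, with every match on either strand in capitals.
CCN2, chr6:131951373-131951622, minus strand: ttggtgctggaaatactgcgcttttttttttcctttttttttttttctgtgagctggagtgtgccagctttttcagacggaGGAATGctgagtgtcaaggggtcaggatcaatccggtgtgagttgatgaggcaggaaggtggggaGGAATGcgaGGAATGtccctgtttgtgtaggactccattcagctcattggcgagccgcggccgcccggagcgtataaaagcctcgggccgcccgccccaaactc
ANKRD1, chr10:90921088-90921337, minus strand: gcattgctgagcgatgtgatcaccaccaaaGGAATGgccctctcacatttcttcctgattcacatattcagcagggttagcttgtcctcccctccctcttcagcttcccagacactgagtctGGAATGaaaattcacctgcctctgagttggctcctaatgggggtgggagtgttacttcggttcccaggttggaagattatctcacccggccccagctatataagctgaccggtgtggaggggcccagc
AMOTL2, second start site, chr3:134374448-134374697, minus strand: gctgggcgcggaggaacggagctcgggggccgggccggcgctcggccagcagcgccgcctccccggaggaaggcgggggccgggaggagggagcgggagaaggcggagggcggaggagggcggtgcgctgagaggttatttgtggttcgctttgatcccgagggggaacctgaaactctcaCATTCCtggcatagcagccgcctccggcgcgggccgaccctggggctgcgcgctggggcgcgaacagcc

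Windows from 250 bases before to 50 bases after a start site were found for 7 of the 10 genes, with 10 windows between them, and CCN1, TEAD1 and TEAD4 were not matched. CCN2 had 3 matches to GGAATG or CATTCC, whose first bases lay at -169, -104 and -95 from the start site. Windows with 3 or more matches made up 45 of all 35116 promoter windows (0.128%). ANKRD1 had 2 matches, at -220 and -128, and YAP1 had 1 at -162. LATS2 had 1 match that lay 10 bases after its start site, AMOTL2 had 1 at -69 in its second window, and AXL had 1 at -212 in its second window. WWTR1 had no match in its 2 windows, which says only that these letters are absent from them. In all, 6 of the 7 genes held a match, in 6 of 10 windows, beside 14.0% of all windows. The letters TGANTCA, read on both strands and known as the site of AP-1, the partner factor of TEAD at many enhancers, were found in ANKRD1 alone among the 7 genes, at -195, beside 7.71% of all windows. Neither motif overlapped the other in ANKRD1.

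The 10 genes spanned a wide range of levels in these cells. On the TPM scale, which corrects for the length of a gene's annotated exons and so allows levels to be set side by side, CCN1 had the highest mean over the 6 libraries at 1328 TPM, which ranked 83rd among all genes and gene copies listed. ANKRD1 followed at 678 TPM (rank 191). WWTR1 at 251 TPM, CCN2 at 246 TPM and AXL at 237 TPM came next, and each of these overlapped its neighbour in range over the 6 libraries. YAP1 at 103 TPM, AMOTL2 at 95.8 TPM and TEAD1 at 80.1 TPM formed the next step, again with overlapping ranges, although all 6 libraries had them in this order. TEAD4 at 56.8 TPM and LATS2 at 31.2 TPM (rank 5401) were the lowest. The ranges of CCN1 and ANKRD1, ANKRD1 and WWTR1, AXL and YAP1, TEAD1 and TEAD4, and TEAD4 and LATS2 did not overlap.

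**Figure D1:**
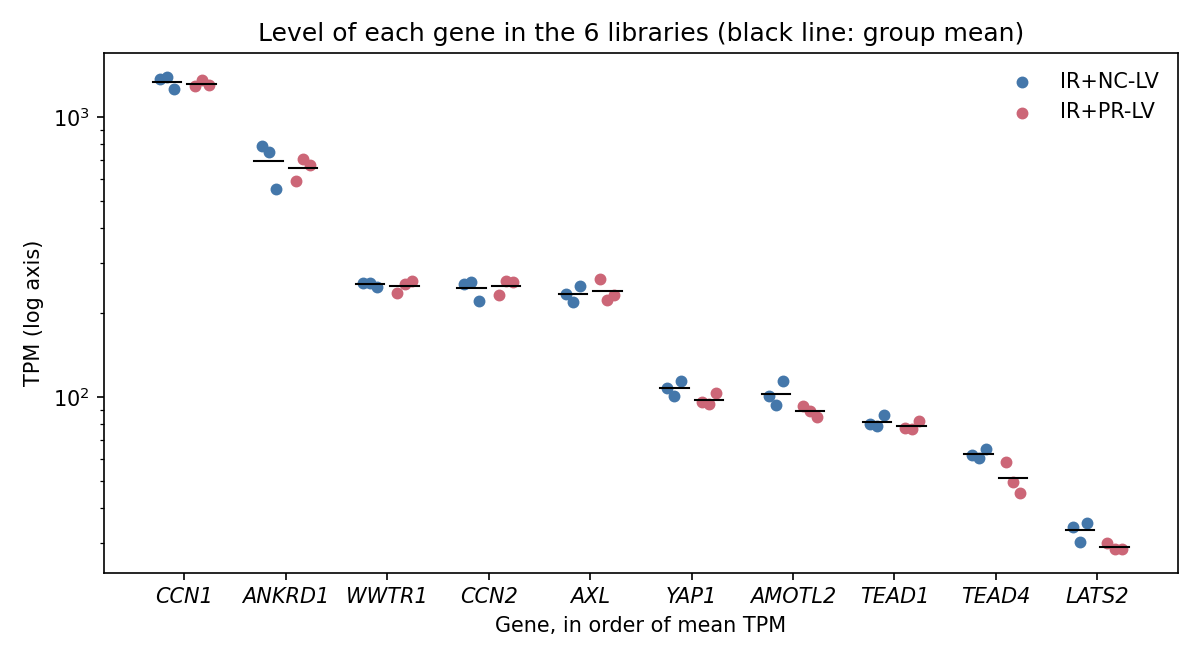
TPM of the 10 genes in each of the 6 libraries on a log axis, with a point per library coloured by group and a black line at the group mean. CCN1 lies highest (mean 1328 TPM) and LATS2 lowest (mean 31.2 TPM), and for 7 of the 10 genes the points of both groups overlap.

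The question of the comparison was which of these genes differed when irradiated cells carried the PRDM16 virus. By the quasi-likelihood test of edgeR, with p adjusted by Benjamini-Hochberg over all 15340 genes and gene copies, 0 of the 10 genes passed an adjusted p of 0.05, in either direction, beside 10 of all those tested (0.0652%). DESeq2 gave 0 of 10 as well. At an unadjusted p under 0.05, TEAD4 and AMOTL2 passed by edgeR, both lower in IR+PR-LV, beside 10.5% of all genes tested (4.55% higher and 5.97% lower). On the CPM scale (counts relative to the TMM-scaled size of the library), the libraries of the groups did not overlap for 3 of the 10, TEAD4, AMOTL2 and LATS2, all lower in IR+PR-LV, beside 17.0% of all genes tested. The median log2 fold change, IR+PR-LV over IR+NC-LV, was -0.033 over the 10 genes and 0.0044 over all genes tested, with 4 of the 10 above 0 and 6 below. The median over the 10 was 0.0070 and 0.0042 without IR+NC-LV replicates 1 and 2, -0.076 without IR+NC-LV replicate 3 and -0.00072 without IR+PR-LV replicate 1. It stayed below 0 without IR+PR-LV replicate 2 or 3, so its sign turned only when IR+NC-LV replicate 1 or 2 was left out. In bulk libraries a smaller number of cells that express a gene and a lower amount of its RNA per cell cannot be told apart.

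**Figure D2:**
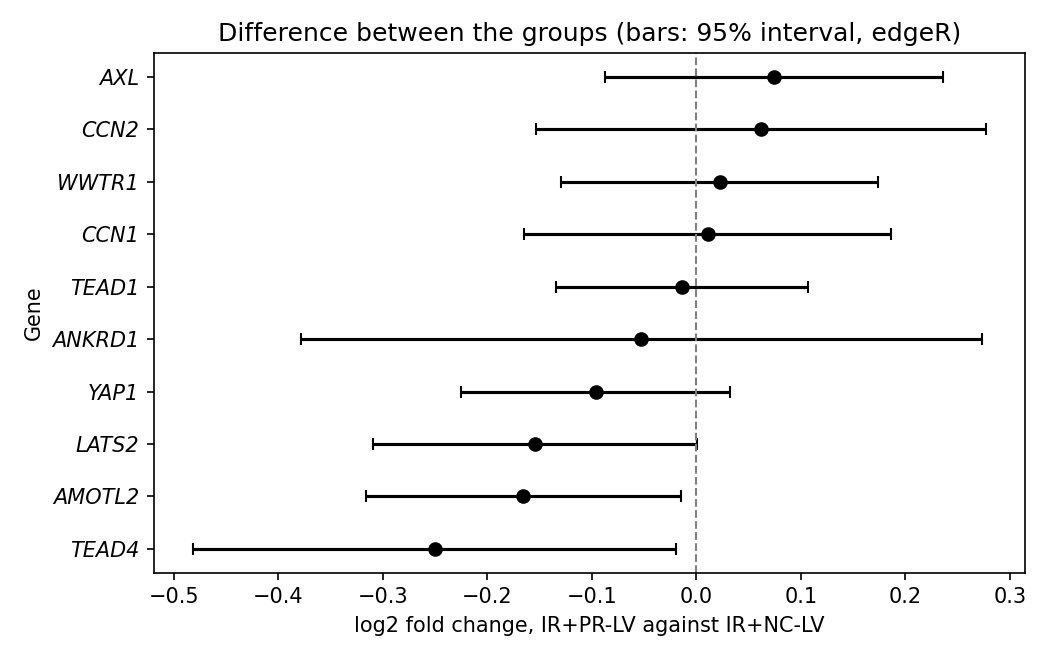
Log2 fold change of each of the 10 genes, IR+PR-LV over IR+NC-LV, from edgeR, with bars for the 95% confidence interval. The intervals of TEAD4 and AMOTL2 lie below 0 (-0.48 to -0.019 and -0.32 to -0.015), and those of the other 8 genes include 0.

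Of the coactivators, YAP1 (chr11:102109957-102233424, plus strand, hg38) was at 107.5, 100.7 and 114.4 TPM in IR+NC-LV replicates 1 to 3 and at 96.1, 94.2 and 103.0 TPM in the IR+PR-LV replicates. The groups overlapped, with IR+PR-LV replicate 3 above IR+NC-LV replicate 2. Its log2 fold change was -0.097 (SE 0.057, edgeR adjusted p = 0.593), and its 95% interval allowed levels in IR+PR-LV between 0.856 and 1.02 times those in IR+NC-LV. WWTR1 (chr3:149517235-149724788, minus strand), which encodes TAZ, was at 254.5, 255.5 and 247.1 TPM in IR+NC-LV and at 235.5, 254.2 and 259.6 TPM in IR+PR-LV. On the TPM scale IR+PR-LV held both its lowest and its highest library, and the mean was 252.4 TPM in IR+NC-LV and 249.7 TPM in IR+PR-LV. On the TMM-scaled counts that were tested, the lowest library was IR+NC-LV replicate 3 (409.9 CPM) and the means ran the other way, at 441.6 and 448.5 CPM. The log2 fold change was 0.022 (SE 0.067, edgeR adjusted p = 0.926), with an interval from 0.914 to 1.13 times the control level.

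WWTR1 transcripts exceeded those of YAP1 in all 6 libraries, by a ratio of TPM between 2.16 and 2.70. The ratio was 2.36 ± 0.190 in IR+NC-LV against 2.56 ± 0.128 in IR+PR-LV (SD, n = 3; exact permutation test, two-sided, p = 0.3). It was 1 of 10 sums, shares and ratios compared in this way, and 3 libraries against 3 cannot give a p below 0.1. After Benjamini-Hochberg adjustment over the 10, the lowest value was 0.333.

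Among the DNA-binding partners, TEAD1 (chr11:12674421-12944737, plus strand) was at 80.2, 78.6 and 86.0 TPM in IR+NC-LV and at 77.2, 76.5 and 82.0 TPM in IR+PR-LV, with overlapping groups. Its log2 fold change was -0.014 (SE 0.053, edgeR adjusted p = 0.945), and the interval ran from 0.911 to 1.08 times the control level. TEAD4 (chr12:2959397-3040676, plus strand) was at 61.9, 60.3 and 65.4 TPM in IR+NC-LV and at 58.6, 49.6 and 45.2 TPM in IR+PR-LV. All 3 IR+PR-LV libraries lay below all 3 controls, and IR+PR-LV replicate 1 lay nearest to them. The difference in TEAD4 was the largest in size among the 10 genes, with a log2 fold change of -0.25 (SE 0.10, unadjusted p = 0.0365, adjusted p = 0.440 by edgeR), or 0.841 times the control level with an interval from 0.716 to 0.987. Its counts were the fewest of the 10, between 440 and 750 per library, and the exact Poisson 95% interval of the lowest was 400 to 483. Without IR+PR-LV replicate 1 the log2 fold change was -0.36 (edgeR adjusted p = 0.132), and without IR+PR-LV replicate 3 it was -0.16 (adjusted p = 0.670). Leaving out any library other than IR+PR-LV replicate 1 brought the unadjusted p above 0.05.

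The other TEAD genes, which bind the same letters, were lower in level, with TEAD2 at 27.2 ± 0.540 TPM in IR+NC-LV and 27.6 ± 2.16 TPM in IR+PR-LV, and TEAD3 at 24.3 ± 1.79 and 23.2 ± 3.16 TPM (SD, n = 3). The 4 TEAD genes summed to 193.7, 192.5 and 200.4 TPM in IR+NC-LV and to 190.5, 178.7 and 172.4 TPM in IR+PR-LV, without overlap (exact permutation test, two-sided, p = 0.1, the smallest possible). TEAD4 made up 32.0% ± 0.654 of that sum in IR+NC-LV against 28.3% ± 2.31 in IR+PR-LV (SD, n = 3; exact permutation p = 0.1). The share of TEAD2 was 13.9% ± 0.555 and 15.3% ± 0.425 (exact permutation p = 0.1), and that of TEAD1 was 41.7% ± 1.08 and 43.7% ± 3.61 (exact permutation p = 0.7). These shares are parts of the same sum, so a lower level of TEAD4 raises the others. The sum and the shares are therefore not independent results. The log2 fold change of TEAD2 itself was 0.059 (edgeR adjusted p = 0.857).

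LATS2 and AMOTL2 restrain YAP and TAZ and are also among their target genes, and neither passed the adjusted threshold. LATS2 (chr13:20973036-21061586, minus strand), a kinase that phosphorylates YAP and TAZ, was at 34.3, 30.3 and 35.4 TPM in IR+NC-LV and at 30.0, 28.7 and 28.6 TPM in IR+PR-LV. The groups did not overlap, as for 17.0% of all genes tested, and the gap between them was narrow, with IR+NC-LV replicate 2 just above IR+PR-LV replicate 1, and the log2 fold change was -0.15 (SE 0.07, unadjusted p = 0.0509, adjusted p = 0.478 by edgeR), with a 95% interval from -0.31 to 0.00076 on the log2 scale. The related kinase gene LATS1 was at 30.7 ± 5.08 TPM in IR+NC-LV and 26.9 ± 0.547 TPM in IR+PR-LV, and the ratio of LATS2 to LATS1 was 1.10 ± 0.107 and 1.08 ± 0.024 (SD, n = 3; exact permutation p = 1.0).

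AMOTL2 (chr3:134355345-134375417, minus strand), an angiomotin that holds YAP at cell junctions and in the cytoplasm, was at 100.8, 93.8 and 113.7 TPM in IR+NC-LV and at 93.0, 88.8 and 84.8 TPM in IR+PR-LV. IR+NC-LV replicate 3 was the highest, and IR+NC-LV replicate 2 was within 1 TPM of IR+PR-LV replicate 1. The log2 fold change was -0.17 (SE 0.07, unadjusted p = 0.0344, adjusted p = 0.435 by edgeR), or 0.892 times the control level with an interval from 0.803 to 0.990. Its unadjusted p exceeded 0.05 when replicate 1 or 3 of IR+NC-LV or replicate 2 or 3 of IR+PR-LV was left out, where the log2 fold change lay between -0.17 and -0.12.

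Of the readout genes, CCN1 (chr1:85580761-85583950, plus strand), a secreted matricellular protein, was at 1365.2, 1395.5 and 1256.9 TPM in IR+NC-LV and at 1287.5, 1360.5 and 1299.7 TPM in IR+PR-LV. The groups overlapped, and the mean was 1339 TPM in IR+NC-LV and 1316 TPM in IR+PR-LV, whereas on the TMM-scaled counts that were tested it was 924.4 and 931.5 CPM. The log2 fold change on those counts was 0.011 (SE 0.078, edgeR adjusted p = 0.972), with an interval from 0.892 to 1.14 times the control level. CCN2 (chr6:131948176-131951372, minus strand), the related connective tissue growth factor, was at 253.5, 258.4 and 220.4 TPM in IR+NC-LV and at 230.6, 258.6 and 257.4 TPM in IR+PR-LV. Its groups overlapped too, with a log2 fold change of 0.062 (SE 0.095, edgeR adjusted p = 0.855) and an interval from 0.899 to 1.21 times the control level. The ratio of CCN1 to CCN2 on the TPM scale stayed between 5.05 and 5.70 in the 6 libraries (exact permutation p = 0.4).

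ANKRD1 (chr10:90912096-90921087, minus strand), a nuclear and sarcomeric ankyrin repeat protein, varied most between libraries, at 788.5, 750.4 and 554.8 TPM in IR+NC-LV and 593.4, 707.6 and 675.1 TPM in IR+PR-LV. IR+NC-LV replicates 1 and 2 were above all IR+PR-LV libraries, while IR+NC-LV replicate 3 was the lowest of the 6. The log2 fold change was -0.053 (SE 0.14, edgeR adjusted p = 0.919), with the widest interval of the 10 genes, from 0.769 to 1.21 times the control level. Without IR+NC-LV replicate 3 the log2 fold change was -0.22 (unadjusted p = 0.0279, adjusted p = 0.486 by edgeR). It was above 0 without replicate 1 or 2 of IR+NC-LV or replicate 1 of IR+PR-LV. AXL (chr19:41219223-41261766, plus strand), a receptor tyrosine kinase for GAS6, was at 233.5, 218.8 and 249.1 TPM in IR+NC-LV and at 263.2, 222.6 and 232.0 TPM in IR+PR-LV. IR+PR-LV replicate 1 was the highest library and the groups overlapped, with a log2 fold change of 0.074 (SE 0.072, edgeR adjusted p = 0.759) and an interval from 0.941 to 1.18 times the control level. Without IR+PR-LV replicate 1 the log2 fold change was 0.00011.

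Deviations were taken as the log2 CPM of a library minus the mean of the gene over the 6 libraries. In IR+NC-LV replicate 3, ANKRD1 deviated by -0.37, CCN2 by -0.25, CCN1 by -0.17 and WWTR1 by -0.12, and each had its lowest value of the 6 there. AMOTL2 had its highest value in the same library, at 0.16. IR+PR-LV replicate 1 was the second lowest for ANKRD1 (-0.16), CCN2 (-0.071) and WWTR1 (-0.069), and the highest for AXL (0.18). TEAD4 was lowest in IR+PR-LV replicate 3 (-0.31). Of the 10 genes, 9, 8 and 5 were above their own mean in IR+NC-LV replicates 1 to 3, against 2, 4 and 5 in IR+PR-LV replicates 1 to 3. The same share over all genes was not counted. Small deviations weigh as much as large ones in these counts, and those of TEAD1 in IR+NC-LV were 0.0074, 0.0049 and 0.0088. The mean deviation of the 10 genes was 0.079, 0.051 and -0.049 in IR+NC-LV replicates 1 to 3. It was -0.020, -0.013 and -0.048 in IR+PR-LV replicates 1 to 3. IR+NC-LV replicate 3 was also the library with the fewest counts and the largest deviation from its group over all genes (root mean square 0.235 log2, beside 0.173 to 0.234 in the others), and the part of depth in this pattern was not tested.

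**Figure D3:**
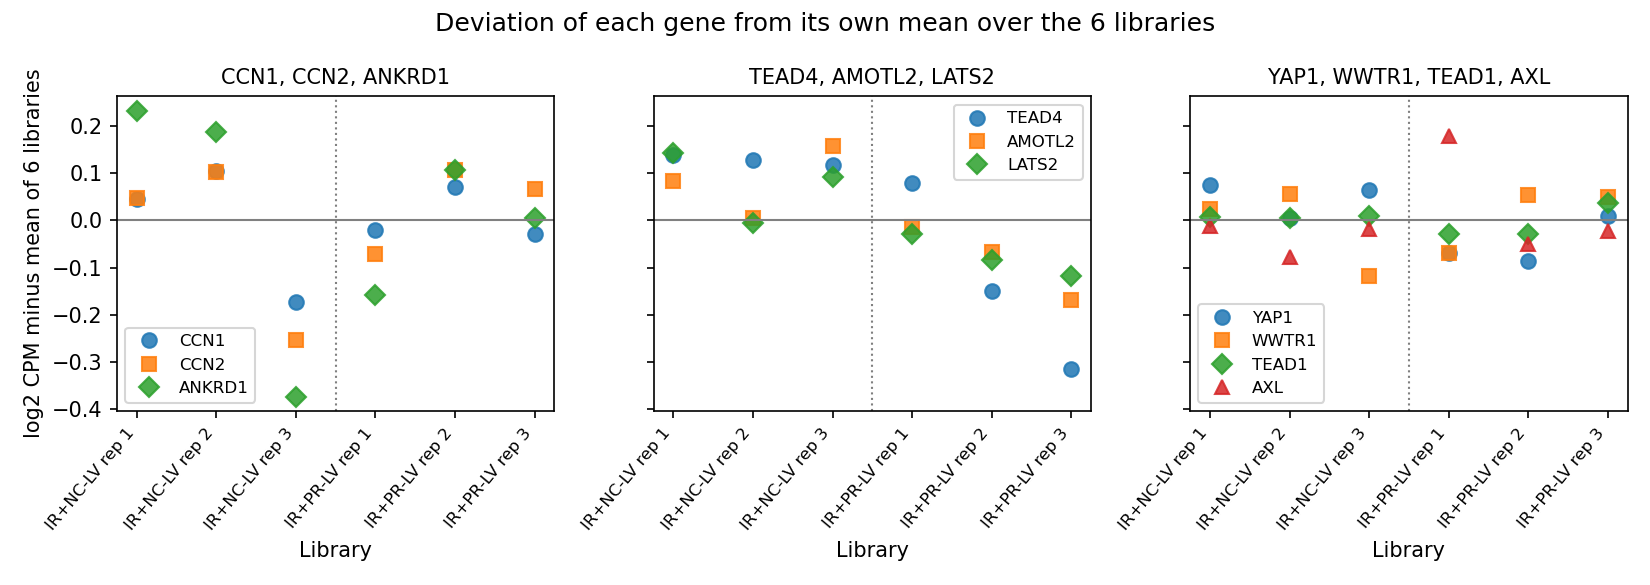
Deviation of log2 CPM from the mean over the 6 libraries, for each of the 10 genes (a symbol each, in 3 panels) in each library along the horizontal axis, with a dotted line between the groups. IR+NC-LV replicate 3 holds the lowest value of ANKRD1 (-0.37), CCN2 (-0.25), CCN1 (-0.17) and WWTR1 (-0.12), and IR+PR-LV replicate 3 the lowest of TEAD4 (-0.31).

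The genes with the pattern most like that of CCN2 over the 6 libraries were LOC100506071, TOMM5, ARPC5, NCEH1 and ERAP2, with a root mean square difference of centred log2 CPM between 0.018 and 0.021 among 13967 genes. CCN1 came 255th in this order (0.057), WWTR1 398th and ANKRD1 2175th. For CCN1 the nearest were PPIA, HAVCR1, PLPBP, S100A16 and TUBA1C, between 0.010 and 0.022, and WWTR1 came 231st. These distances describe 6 libraries only.

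The other genes of the pathway were read from lists chosen with earlier results of these data known. In the Hippo kinase cassette, 0 of 10 genes passed the adjusted threshold and 0 passed an unadjusted p of 0.05 by edgeR, and by DESeq2 0 passed the adjusted one. The median log2 fold change was 0.043, with 7 above 0 and 3 below. MOB1A, an adaptor that activates the LATS kinases, had the highest level at 165 ± 4.97 TPM in IR+NC-LV and 176 ± 17.7 TPM in IR+PR-LV (SD, n = 3) and also the highest log2 fold change, 0.13. It was 0.075 when IR+NC-LV replicate 3 was left out, and 0.21 or 0.076 when replicate 1 or 3 of IR+PR-LV was. The upstream kinases MAP4K4 and TAOK1 were at 90.9 ± 2.13 and 70.5 ± 9.08 TPM in IR+NC-LV and at 93.9 ± 5.62 and 70.3 ± 2.61 TPM in IR+PR-LV. LATS1 had the lowest log2 fold change of the list, -0.15, which was -0.22 without IR+NC-LV replicate 2 and -0.052 without IR+NC-LV replicate 3.

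Of 12 upstream and junctional regulators, 0 passed the adjusted threshold by edgeR or DESeq2, 6 were above 0 and 6 below, and the median log2 fold change was 0.0016. FRMD6, a FERM protein that promotes Hippo signalling, was the most abundant at 237 ± 11.1 TPM in IR+NC-LV and 223 ± 15.4 TPM in IR+PR-LV (SD, n = 3). The phosphatase PTPN14, which binds YAP and also stands in the list of targets, was at 125 ± 13.5 and 118 ± 6.14 TPM, and the scaffold WWC1 (KIBRA) at 67.0 ± 4.34 and 64.7 ± 2.89 TPM. AMOT, the founding angiomotin, was low, at 0.939, 0.753 and 1.34 TPM in IR+NC-LV and 0.665, 0.679 and 0.704 TPM in IR+PR-LV. Its groups did not overlap, as for 16.7% of the genes of this list and 17.0% of all genes tested. AMOT had the lowest log2 fold change of the list, -0.49 (unadjusted p = 0.0495, adjusted p = 0.475 by edgeR). By DESeq2 the unadjusted p was 0.156, and without IR+NC-LV replicate 3 the log2 fold change was -0.30 (edgeR unadjusted p = 0.184). The protocadherin gene DCHS1 had the highest, 0.38, at 0.178 and 0.224 TPM.

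Of 9 STRIPAK and LIM proteins that restrain the kinases, 8 were tested and 0 passed the adjusted threshold by edgeR or DESeq2. The median was -0.012, with 3 above 0 and 5 below. AJUBA, a LIM protein that holds LATS kinases at junctions under tension, was at 129.7, 119.0 and 156.2 TPM in IR+NC-LV and 109.2, 108.7 and 112.2 TPM in IR+PR-LV. Its groups did not overlap, as for 12.5% of the tested genes of this list and 17.0% of all genes tested. The log2 fold change of AJUBA was -0.25 (SE 0.07, unadjusted p = 0.00766, adjusted p = 0.313 by edgeR). The striatins STRN4 and STRN3, scaffolds of a phosphatase that acts on STK3 and STK4, were at 57.9 ± 3.42 and 50.9 ± 3.84 TPM in IR+NC-LV and at 61.4 ± 9.77 and 49.4 ± 3.09 TPM in IR+PR-LV, and STRN4 had the highest log2 fold change of the list, 0.13. Of 6 other TEAD factors and VGLL cofactors, 4 were tested and 0 passed at either threshold by edgeR. VGLL4, which competes with YAP for TEAD, was at 17.1 ± 0.880 and 16.1 ± 0.399 TPM, VGLL3 had the lowest log2 fold change (-0.28) at under 1 TPM, and VGLL1 was at 0 counts in all 6 libraries.

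Of 16 other YAP/TAZ target genes, 1 passed the adjusted threshold, GADD45A, and it was lower in IR+PR-LV, beside 10 of all 15340 genes tested. The median log2 fold change of the list was 0.030, with 11 above 0 and 5 below. GADD45A, a stress-induced growth arrest gene that also answers to p53 and ATF4, fell from 561.8, 476.2 and 730.1 TPM in IR+NC-LV to 283.5, 281.4 and 278.4 TPM in IR+PR-LV (log2 fold change -1.02, SE 0.11, edgeR adjusted p = 0.0173). That it passed was known when the list was written. The edgeR adjusted p was 0.0605 when IR+NC-LV replicate 1 was left out, and 0.0602, 0.0559 and 0.121 when replicates 1, 2 and 3 of IR+PR-LV were. It was 0.00296 and 0.00917 without IR+NC-LV replicates 2 and 3, and DESeq2 on all 6 libraries gave 3.09e-17. The log2 fold change lay between -1.13 and -0.88 with any 1 of the 6 libraries left out. NUAK2, a kinase of the AMPK family, was named after its values were seen, at 57.0, 51.1 and 78.4 TPM in IR+NC-LV and 33.3, 34.7 and 35.1 TPM in IR+PR-LV. Its groups did not overlap, as for 25% of the genes of this list and 17.0% of all genes tested. The log2 fold change of NUAK2 was -0.80 (SE 0.12, adjusted p = 0.0687 by edgeR and 1.25e-07 by DESeq2). TGFB2, a ligand of the TGF-beta receptors, had the highest log2 fold change of the list, 0.21 (SE 0.07, unadjusted p = 0.0179, adjusted p = 0.383 by edgeR), at 105.1, 109.0 and 105.4 TPM in IR+NC-LV and 110.0, 123.8 and 125.9 TPM in IR+PR-LV. The groups of TGFB2 did not overlap either, with IR+PR-LV higher. Its unadjusted p exceeded 0.05 when replicate 1 or 3 of IR+NC-LV or replicate 2 or 3 of IR+PR-LV was left out. The abundant targets IGFBP3 and NT5E were at 343 ± 90.3 and 231 ± 16.4 TPM in IR+NC-LV and at 363 ± 18.6 and 253 ± 18.4 TPM in IR+PR-LV. Of the 11 targets of this list with a promoter window, 4 held GGAATG or its reverse complement, beside 14.0% of all windows.

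Target genes of MRTF and SRF, the other arm that answers to actin, were read beside them, since several YAP/TAZ targets carry both inputs. Of 13 MRTF-SRF and actin cytoskeleton genes, 0 passed at either threshold by edgeR, the median was -0.0059, and 6 were above 0 and 7 below. ACTB, ACTG1 and FLNA were at 6136 ± 151, 3902 ± 80.7 and 681 ± 45.2 TPM in IR+NC-LV and at 5952 ± 316, 3946 ± 77.6 and 707 ± 101 TPM in IR+PR-LV (SD, n = 3). ACTA2, smooth muscle actin, was at 1.39, 1.59 and 1.67 TPM in IR+NC-LV and 0.635, 1.58 and 0.784 TPM in IR+PR-LV. It had the lowest log2 fold change of the list at -0.50 (SE 0.37, edgeR adjusted p = 0.684), and CNN1 the highest at 0.16. ACTA2 was at -1.08 without IR+PR-LV replicate 2 and -0.29 without IR+PR-LV replicate 1, and CNN1 was at 0.016 without IR+NC-LV replicate 3 and 0.26 without IR+NC-LV replicate 2.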

How the data were processed

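RNA of 6 HK-2 libraries was poly(A) selected and sequenced. The authors deposited, for each library, read counts per gene (hg38; featureCounts 2.0.1, per the submitters' processing notes) without normalization, beside TPM values and FPKM values, and only the counts and TPM were used. The notes also name CASAVA and DESeq2 1.16.1. The aligner and the strand setting of the counting are not given in the sources used here. Groups came from the titles and treatments in the labels. IR+PR-LV was compared with IR+NC-LV in R 4.3.3 by edgeR 4.0.16 (quasi-likelihood test, TMM normalization with factors from 0.981 to 1.04, filterByExpr with its default minimum count (10) and minimum total (15), no covariate), with Benjamini-Hochberg adjustment over 15340 genes and gene copies and a threshold of 0.05. Levels are the deposited TPM. CPM values are TMM-normalized, and log2 CPM used a prior count of 2. Standard errors came from the fold change and the F statistic, and the biological coefficient of variation was 0.106. Confidence intervals are at 95%, and Poisson intervals cover counting error alone. The reads carried no molecular identifiers, so repeated reads of the same molecule could not be told apart and these intervals may be too narrow.

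The genes and lists were chosen with earlier results of these data known. The named genes were the 10 genes, PRDM16, the 3 most abundant genes of each list, its genes past the threshold, its highest and lowest log2 fold change, and the 5 genes nearest in pattern to CCN2 and to CCN1 with a mean of at least 1 CPM. NUAK2, EPCAM and LRP2 fell outside this rule and were named after their values were seen, and not every gene the rule names in the marker lists is described. Each of the 10 genes was listed once, shared no exon base with another listed gene, and had all its 100-base stretches unique among annotated transcripts, except AMOTL2 (98.0%). Alternatives were RLE and upper-quartile normalization, no filter, at least 10 counts in every library, summed gene copies, a replicate block, leaving out single libraries, and DESeq2 1.42.0. The procedure was tested on simulated counts whose differences were larger than those of the 10 genes. That test therefore does not show whether differences as small as theirs could be found.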

Additional observations from a re-analysis of the deposited data

How the results depend on the processing

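None of the 10 genes passed the adjusted threshold under any of the 13 alternatives, and the lowest adjusted p was 0.132 for TEAD4, 0.202 for AMOTL2 and 0.246 for LATS2, all without IR+PR-LV replicate 1. At an unadjusted p under 0.05, between 0 and 3 of the 10 passed. Over all genes, 10 passed with edgeR, 342 with no filter on low counts, 168 with DESeq2, 3 with the replicate number as a block, and between 1 and 28 with a library left out (1 without IR+NC-LV replicate 1 and 1 without IR+PR-LV replicate 3, 28 without IR+NC-LV replicate 2, 16 without IR+NC-LV replicate 3), and the cause was not tested. Deviations of same-numbered libraries correlated by -0.0088, 0.051 and 0.071. Replicates 2 and 3 of IR+NC-LV correlated best with their own number in IR+PR-LV, and replicate 1 correlated best with number 2. Because the deviations were taken from means of only 3 libraries, these values cannot decide whether the numbers mark a shared batch. With the replicate block GADD45A had an adjusted p of 0.0552. With a library left out, the log2 fold change ranged from -0.026 to 0.062 for WWTR1, -0.22 to 0.050 for ANKRD1, -0.037 to 0.13 for CCN2, -0.065 to 0.066 for CCN1, -0.0084 to 0.21 for STRN4, -0.53 to 0.19 for VGLL3 and -0.071 to 0.87 for COL3A1, so the sign of these 7 is not fixed. YAP1, TEAD1, TEAD4, LATS2, AMOTL2 and AXL kept their sign under all 13. The scaling alternatives moved the median of all genes by less than 0.1. NUAK2 passed the adjusted threshold with no filter, with DESeq2 and without IR+NC-LV replicate 2 or 3. With 3 libraries a group, the intervals of the 10 genes allow differences of the sizes given beside each.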

Other observations

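On the CPM scale, several genes of the pathway lists stood in IR+NC-LV replicate 3 on the other side from the readout genes. GADD45A was highest there, at 233.6, 201.6 and 283.2 CPM in IR+NC-LV replicates 1 to 3 and 115.5 to 119.5 CPM in IR+PR-LV, as was NUAK2, at 61.5, 56.0 and 78.9 CPM. AJUBA (188.6, 176.2 and 211.9 CPM) and LATS1 (82.4, 76.1 and 95.6 CPM) were highest in the same library. CCN1 (956.3, 995.5 and 821.6 CPM), CCN2 (182.2, 189.2 and 147.8 CPM) and ANKRD1 (434.0, 420.6 and 285.0 CPM) were lowest there. Other genes of the lists were lowest there too, among them MOB1A (233.5 CPM), TGFB2 (179.9 CPM) and NT5E (217.5 CPM). How many genes lay on each side was not counted, in the lists or over all genes. IR+NC-LV replicate 3 was also the library with the fewest counts. All these genes were set side by side after their values were seen.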
